A study of Mus musculus and synthetic construct with 3 samples.

Results

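Smooth muscle hexagons of abdominal aortic aneurysm (AAA) sections were compared by their distance to Gpnmb, and 509 of the 10200 hexagons kept in the AAA sections (4.99%) entered the comparison. A hexagon is an area of the section with a side of 12 µm, and its RNA is counted as unique molecular identifiers (UMIs). Hexagons were kept when they held exonic UMIs of 50 or more genes, genes whose names start with mt or Gm aside. Among them, smooth muscle hexagons held 3 or more summed UMIs of Acta2, Tagln, Myl9, Myh11 and Csrp2 and no UMI of Gpnmb. Near hexagons, 296 in number, had the centre of a Gpnmb-positive hexagon within 45 µm. Away hexagons, 213 in number, had none within 90 µm, and 201 smooth muscle hexagons between these limits were left out. The members were thus chosen by their UMIs of the 5 contractile genes and of Gpnmb and by the distance to Gpnmb, and these values are given as a description with no test. The question was whether smooth muscle areas close to Gpnmb-positive areas differed in RNA from smooth muscle areas of the same aortas that lay farther off.

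The study used Seq-Scope, an assay that captures polyadenylated RNA of a tissue section on a dense array of barcodes with known positions. All mice were male Apoe-/- mice on a normal diet that carried subcutaneous minipumps for 4 weeks, with angiotensin II (AngII) or saline in 5 mice each. The age at implantation is 16 weeks in the labels and 12 weeks in the study's methods. AAA developed in 3 AngII mice, and 10 µm sections of the suprarenal aorta of these 3 mice and of 3 saline controls were placed on 1 array. Near and away hexagons both came from the 3 AAA mice, so the Apoe deletion, AngII and the aneurysm were common to both zones and each mouse served as its own reference. The 10 AAA sections and 10 control sections shared 1 deposited count matrix, and their mice were assigned from their positions on the array as the study's supplement draws them, not from GEO's labels. The outline of 1 AAA section of mouse 3, with 37 near and 44 away hexagons, touches that of a control section, so hexagons at that border could belong to either. Without this section 37 genes could be tested and 0 passed in edgeR, with 2 at an unadjusted p under 0.05. A hexagon can hold several cells or part of one cell, and its RNA is not that of a cell type alone.

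GPNMB is a transmembrane glycoprotein of lysosome-rich cells, and lipid-laden macrophages are a well known source of it. Its outer part can be shed by the proteases ADAM10 and ADAM17, and the shed part can bind CD44, integrins and other surface proteins of neighboring cells. Contractile smooth muscle cells of the aortic media carry actin and myosin proteins such as ACTA2 and MYH11, and in diseased arteries they can lose these proteins and take on matrix-producing or phagocytic features, a process called phenotypic switching.

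AAA mice 1, 2 and 3 gave 154, 45 and 97 near hexagons and 122, 16 and 75 away hexagons. The near hexagons held 19449, 5777 and 9313 UMIs in mice 1, 2 and 3, and the away hexagons held 12567, 1369 and 6183 UMIs. The away zone of mouse 2 was thus the smallest of the 6 sums. Near hexagons lay in 9 of the 10 AAA sections and away hexagons in 9 of them, but not in the same 9. In mouse 2, 1 section had 8 near and 0 away hexagons and another had 0 near and 6 away. The sections of mouse 1 held 64, 80 and 10 near hexagons and 56, 33 and 33 away hexagons. Zone and section can thus not be fully told apart within a mouse. The share of near hexagons among the smooth muscle hexagons of a section ran from 0%, where 0 of 9 hexagons were near, to 66.7%, where 8 of 12 were near. In the control sections the same rule found 367 smooth muscle hexagons, of which 84 were near 1 of 40 Gpnmb-positive hexagons.

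**Figure D1:**
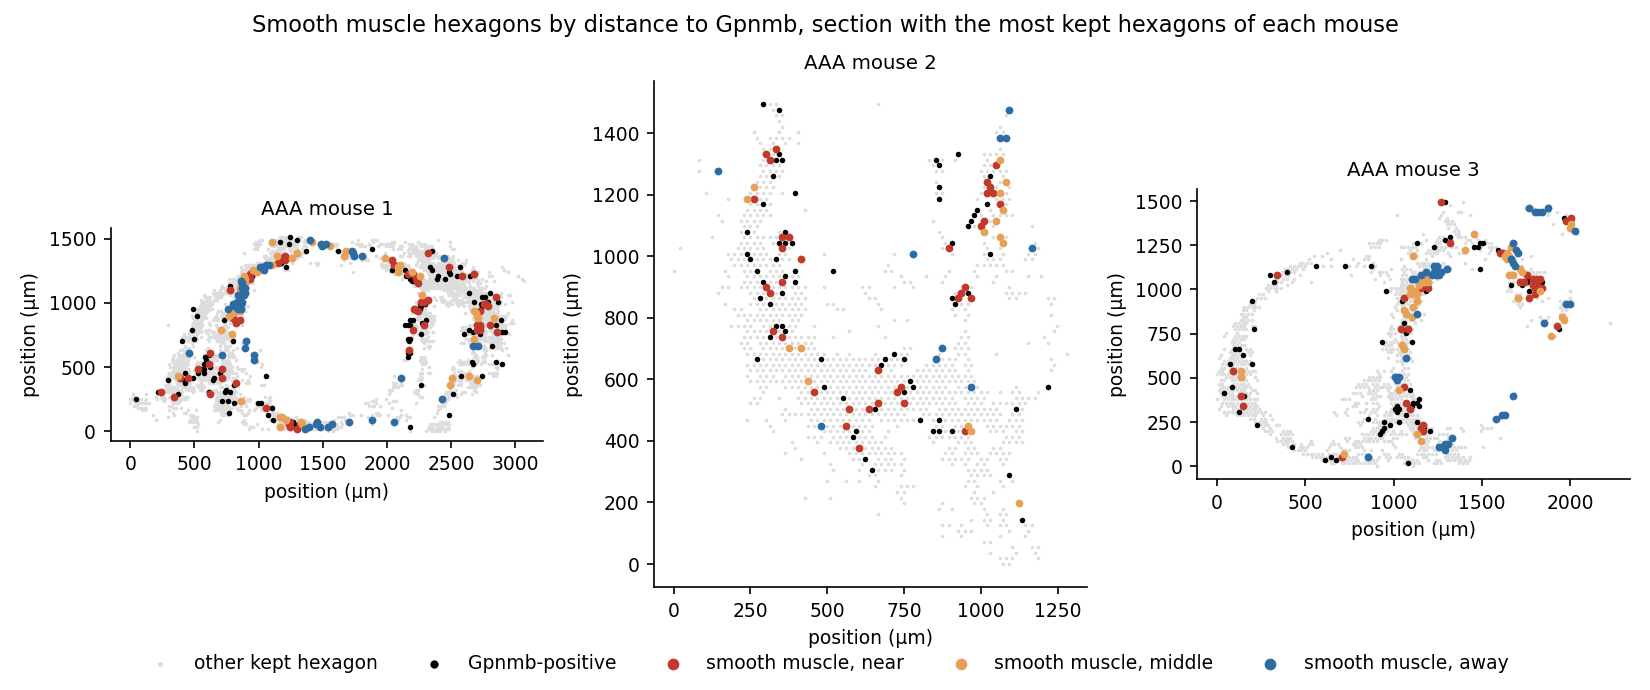
Positions of hexagon centres (µm from the section's edge on both axes) in the AAA section of each mouse that holds the largest number of kept hexagons. Colors mark the near, middle and away smooth muscle hexagons, the Gpnmb-positive hexagons and the other kept hexagons, and the scale differs between the 3 panels; near hexagons (64, 37 and 37 in the panels of mice 1, 2 and 3) and away hexagons (56, 10 and 44) lie in the same sections.

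Gpnmb (chromosome 6, 49036546 to 49070929, plus strand, GRCm38) was found in 256, 144 and 186 kept hexagons of AAA mice 1, 2 and 3, with 300, 199 and 232 UMIs. Most of these hexagons rested on 1 UMI of Gpnmb, in 223, 104 and 148 of them. A further look at the contractile genes showed that 58 Gpnmb-positive hexagons also held 3 or more contractile UMIs, and these are in neither zone. Near hexagons had on average 1.49, 2.02 and 1.95 Gpnmb-positive hexagons within 45 µm in mice 1, 2 and 3, and 103, 22 and 49 of them had exactly 1. The median distance to the nearest Gpnmb-positive centre was 36.0, 36.0 and 20.8 µm in the near hexagons.

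Because centres lie on a grid, distances take few values. The near hexagons farthest from Gpnmb lay at 41.6 µm (65 hexagons), and the next step outward, 55.0 µm, held 98 hexagons that were left out. The last step left out was 83.1 µm (12 hexagons), and the nearest away hexagons lay at 90.6 µm (20 hexagons). At the limit on contractile UMIs, 390 smooth muscle hexagons held exactly 3 and 1059 hexagons held 2 and were not called smooth muscle. At the limit on genes, 15 hexagons held 50 genes and 14 held 49. The highest contractile sum in 1 hexagon was 17 UMIs, and 6 hexagons reached 10.

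The label of smooth muscle was checked with 37 contractile and actin-linked genes that the rule did not use, such as Tpm2, Csrp1, Myl6, Flna and Cpe. These genes took 219, 169 and 238 of every 10,000 UMIs in all smooth muscle hexagons of mice 1, 2 and 3, and 129, 124 and 148 in the other kept hexagons, which hold neither Gpnmb nor 3 contractile UMIs. The smooth muscle hexagons were above the others in each of the 3 mice. Control smooth muscle hexagons were at 311, 285 and 343 of 10,000. The label of Gpnmb-positive hexagons was checked with 34 macrophage genes, which took 101, 152 and 108 of 10,000 UMIs there and 70.7, 72.4 and 80.5 in the other kept hexagons. Genes of the lysosome, 40 in the list, took 228, 329 and 264 of 10,000 UMIs in Gpnmb-positive hexagons and 172, 179 and 193 in the others. Both lists were thus higher in Gpnmb-positive hexagons in every mouse. The contractile content of a smooth muscle hexagon was small all the same, since Myh11, the smooth muscle myosin heavy chain and the most specific of the 5 rule genes, had 8, 4 and 4 UMIs over all near hexagons and 5, 0 and 2 over all away hexagons.

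Near hexagons held more RNA than away hexagons in every mouse. The median was 102, 105 and 88 UMIs per near hexagon in mice 1, 2 and 3, and 88.5, 80.5 and 78 UMIs per away hexagon. The mean of these medians was 98.3 ± 9.07 UMIs near and 82.3 ± 5.48 UMIs away (SD, n = 3 mice), with a difference of 16 ± 7.57 UMIs. An exact permutation test over the 3 pairs, two-sided, gave p = 0.25, which is the smallest it can give with 3 mice. Genes per hexagon moved the same way, with medians of 92, 95 and 80 near and 80.5, 73 and 71 away.

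Near hexagons also had more tissue around them. The median number of kept hexagons within the 45 µm circle was 13.5, 13 and 12 near and 9, 5.5 and 9 away, a difference of 5.0 ± 2.29 (SD, n = 3, exact permutation p = 0.25). The number includes Gpnmb-positive hexagons, on average 1.49, 2.02 and 1.95 per near hexagon and, by the rule, none per away hexagon. Part of the difference, and of what its p measures, was thus set by the selection. A hexagon with more kept neighbors has more places where a Gpnmb UMI can be found. In members of a narrow range of UMIs, the comparison described further on tested 53 genes and 0 passed in edgeR, with 2 at an unadjusted p under 0.05. There the contractile genes outside the rule had a mean log2 ratio, near over away, of -0.11 ± 0.06 and the macrophage genes one of 0.42 ± 0.27 (SD, n = 3). The part of the number of neighbors was not tested.

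**Figure D2:**
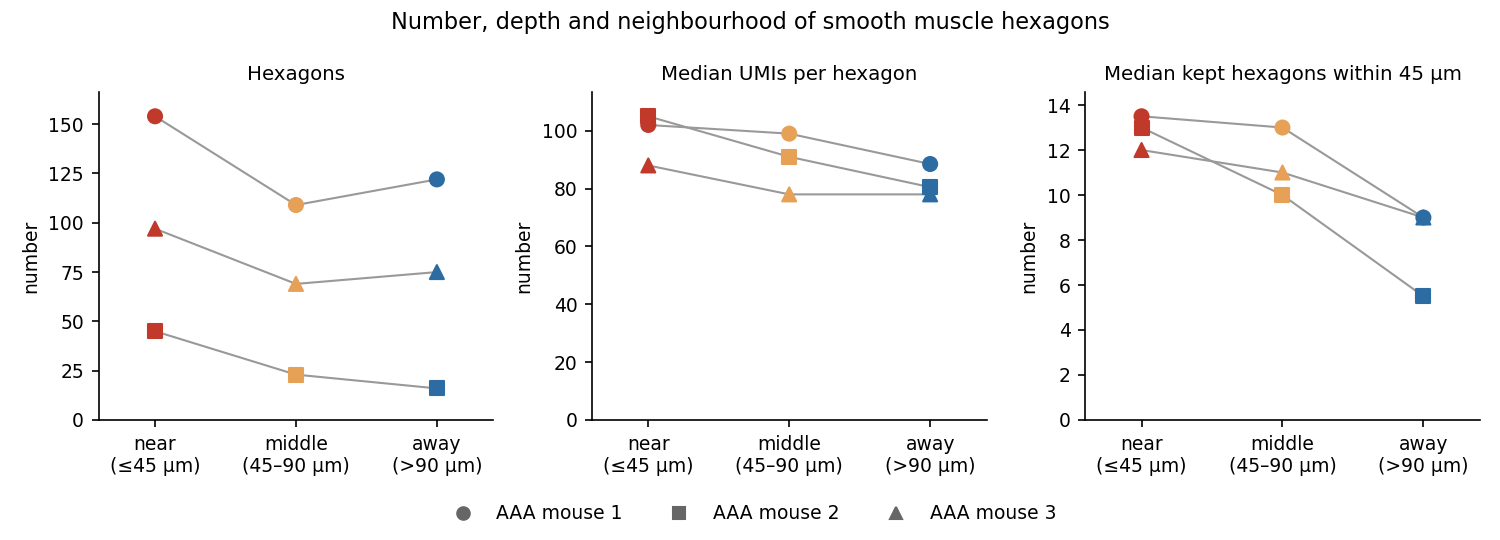
Number of smooth muscle hexagons, median UMIs per hexagon and median number of kept neighbor hexagons by zone, each point 1 AAA mouse. Near hexagons had medians of 102, 105 and 88 UMIs and away hexagons 88.5, 80.5 and 78, and the near value was the higher in each mouse.

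The contractile genes of the rule, summed, took a smaller share of the RNA near Gpnmb in each mouse, though not each of the genes did. Summed over the 5 genes, the share was 305, 282 and 397 of 10,000 UMIs near and 411, 351 and 484 away in mice 1, 2 and 3. Per hexagon, the mean sum was 3.86, 3.62 and 3.81 UMIs near and 4.23, 3.00 and 3.99 UMIs away, lower near in mice 1 and 3 and higher near in mouse 2. Since the rule sets a least number of these UMIs and near hexagons held more RNA in all, a lower share near Gpnmb and the selection cannot be told apart.

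Acta2, the smooth muscle actin, took 148, 116 and 184 of 10,000 UMIs near and 196, 205 and 235 away, and the zones did not overlap. Myl9, the myosin regulatory light chain, took 69.9, 69.2 and 78.4 near and 86.7, 80.4 and 108 away, also without overlap. For Tagln, an actin-binding protein of smooth muscle, the values were 73.0, 77.9 and 116.0 near and 108, 51.1 and 113 away, and the zones overlapped. Csrp2, a LIM-domain protein, had 21, 7 and 14 UMIs near and 20, 2 and 15 away. Myh11 had a higher share near, at 4.11, 6.92 and 4.30 of 10,000 near and 3.98, 0 and 3.23 away, without overlap but on 16 UMIs near and 7 away. The middle zone, 45 to 90 µm from Gpnmb, had a summed share of 341, 339 and 446 of 10,000, between the near and away values in each mouse.

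Across all other genes, no gene passed the test between near and away smooth muscle hexagons. Exonic UMIs were summed per mouse and zone and tested in edgeR with the mouse as a block, because both zones of a pair come from the same mouse. Of 10096 genes with at least 1 UMI, 65 had enough UMIs to be tested, which is 0.644% of the genes and 17.0% of the UMIs. Of these, 0 passed an adjusted p of 0.05 (0% of the genes tested), and DESeq2 also called 0. At an unadjusted p under 0.05 there were 4 genes (6.15% of those tested), 2 higher near Gpnmb (3.08%) and 2 lower (3.08%). The fitted log2 fold change, near over away, was above 0 for 37 genes and below 0 for 28, with a median of 0.03.

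These counts allow large differences to have been missed. The 95% interval of a gene's log2 fold change was 1.59 wide in the median and between 0.81 and 1.94 over the 65 genes. For 37 genes the whole interval lay within a 2-fold change either way, and for 28 genes a 2-fold change was not excluded. In this fit the genes shared an estimate of spread, so an interval does not hold the gene's own spread over the mice. Eef1a1, named here because of its values, had an interval of -0.20 to 0.66. Its shares were 32.4, 43.3 and 56.9 of 10,000 near and 34.2, 80.4 and 25.9 away in mice 1, 2 and 3. A 2-fold change across mice is thus not excluded for the 37 genes either. The absence of a call does not show that the levels were equal.

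**Figure D3:**
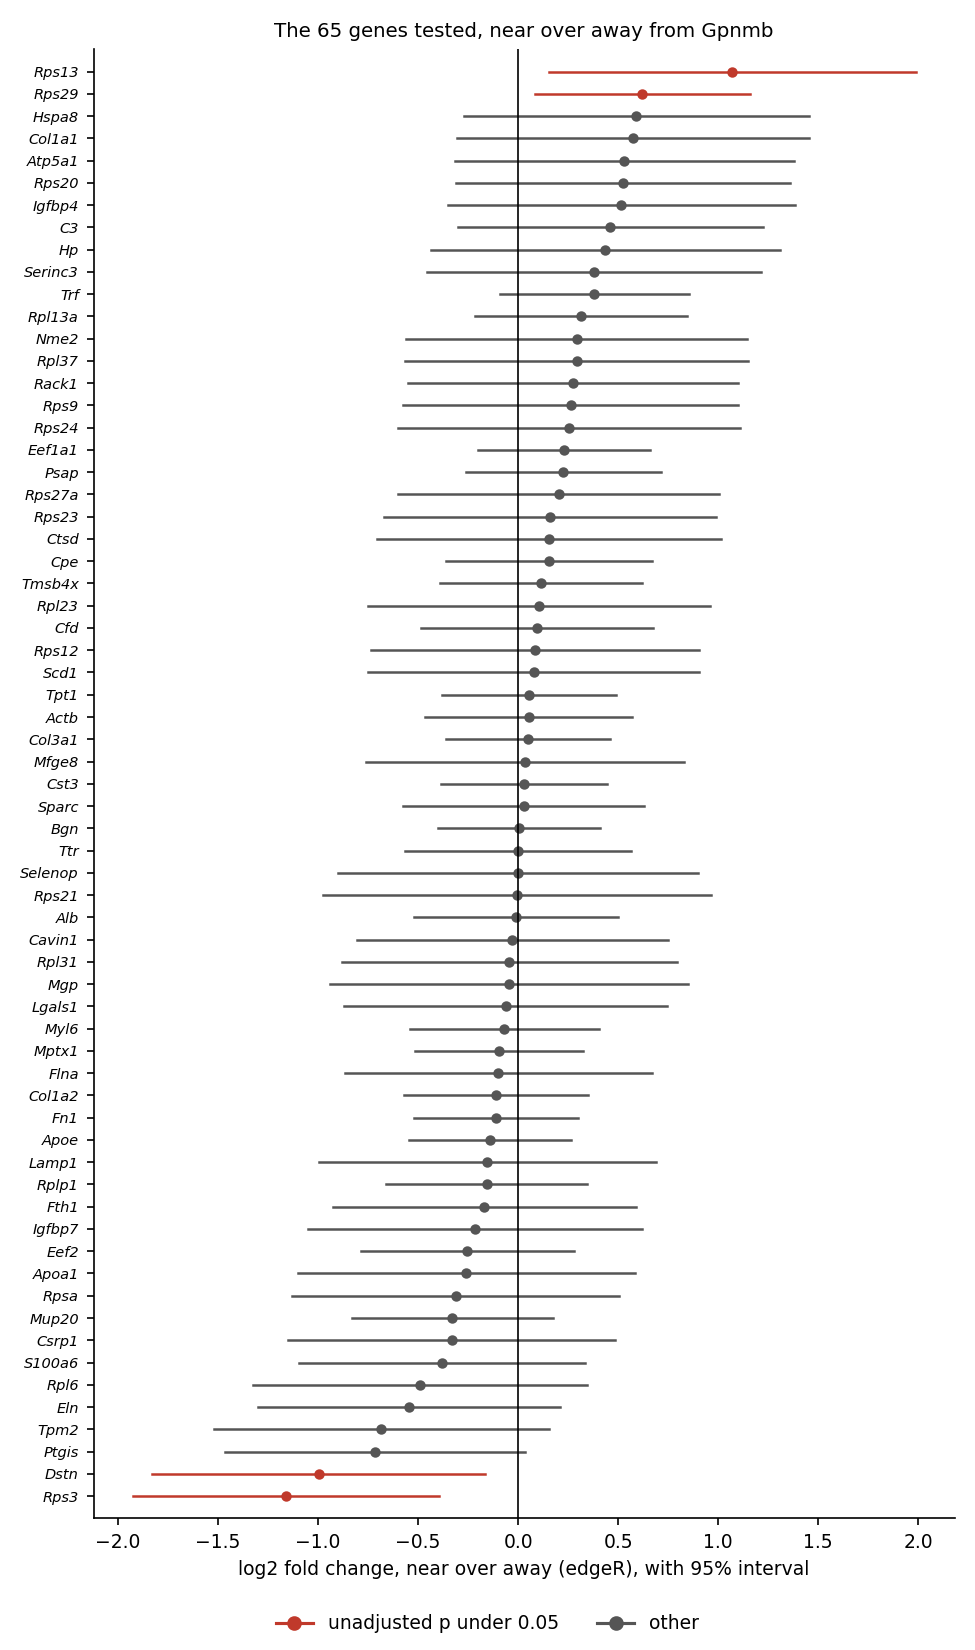
Log2 fold change of smooth muscle hexagons near over away from Gpnmb for the 65 genes tested (x axis), with 95% intervals, from edgeR with the mouse as a block. Red points mark the 4 genes with an unadjusted p under 0.05, and none of the 65 passed the adjusted threshold.

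The 4 genes at the unadjusted threshold were Rps3, Dstn, Rps13 and Rps29. Of these, Rps3, Dstn and Rps13 are named here because of their values, while Rps29 is among the ribosomal genes with the most UMIs. Rps3 (chromosome 7, 99477896 to 99483738, minus strand), a protein of the small ribosomal subunit, had 12, 8 and 4 UMIs near and 19, 4 and 7 UMIs away in mice 1, 2 and 3. As a share this was 6.17, 13.8 and 4.30 of 10,000 near and 15.1, 29.2 and 11.3 away, lower near in each mouse. The log2 fold change was -1.16 ± 0.39 (SE, 95% interval -1.93 to -0.39, adjusted p = 0.213 in edgeR), which did not pass.

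Dstn (chromosome 2, 143915320 to 143943324, plus strand) encodes destrin, which severs and depolymerizes actin filaments. It had 21, 3 and 14 UMIs near and 32, 1 and 16 away. As a share this was 10.8, 5.19 and 15 of 10,000 near and 25.5, 7.30 and 25.9 away, and although the near value was lower in each mouse, the zones overlapped across mice. Its log2 fold change was -1.0 ± 0.42 (SE, 95% interval -1.83 to -0.16, adjusted p = 0.391 in edgeR).

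The other 2 were higher near. Rps13 had 39, 13 and 16 UMIs near and 8, 0 and 11 away, with a log2 fold change of 1.07 ± 0.46 (SE, 95% interval 0.15 to 1.99). It was higher near in mice 1 and 2, and in mouse 3 the shares were 17.2 near and 17.8 away of 10,000. Rps29 had 56, 18 and 34 UMIs near and 21, 2 and 19 away, with a log2 fold change of 0.62 ± 0.27 (SE, 95% interval 0.08 to 1.16, adjusted p = 0.391 in edgeR), and its share was higher near in each mouse. Ribosomal genes have many processed copies in the genome, and how the counting placed reads of such copies is not given in the sources used here. Of the 17 ribosomal genes tested, 11 were above 0 and 6 below, with a median log2 fold change of 0.16, beside 0.03 over all 65. The whole ribosomal list took 724, 782 and 694 of 10,000 UMIs near and 624.7, 950 and 647 away, so mouse 2 went the other way from mice 1 and 3.

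Contractile and actin-linked genes outside the rule gave no call. Of the 7 tested, 6 lay below 0 and 1 above, with a median log2 fold change of -0.33. Besides Dstn, Ptgis (prostacyclin synthase) had a log2 fold change of -0.72 (95% interval -1.47 to 0.03) and Tpm2 (beta-tropomyosin) one of -0.68 (95% interval -1.52 to 0.15). Myl6, the non-muscle and smooth muscle essential light chain, had 59, 15 and 28 UMIs near and 45, 2 and 19 away, with a log2 fold change of -0.07 (95% interval -0.54 to 0.40). Flna, the actin cross-linker filamin A, was at -0.10, and Cpe, a carboxypeptidase, at 0.15. All intervals but that of Dstn included 0.

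Summed over the 37 genes of this list, the share was 202, 147 and 245 of 10,000 near and 244, 183 and 236 away. Near was lower in mice 1 and 2 and higher in mouse 3, and the mean log2 ratio was -0.19 ± 0.21 (SD, n = 3). In finer steps of distance the list showed no order. Hexagons that adjoined a Gpnmb-positive one were at 208, 155 and 234 of 10,000, the rest of the near zone at 196, 139 and 263, and the middle zone at 220, 214 and 231. The lower share of contractile RNA that the summed rule genes showed in each mouse was thus seen in 2 of 3 mice in the genes that did not choose the hexagons.

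**Figure D4:**
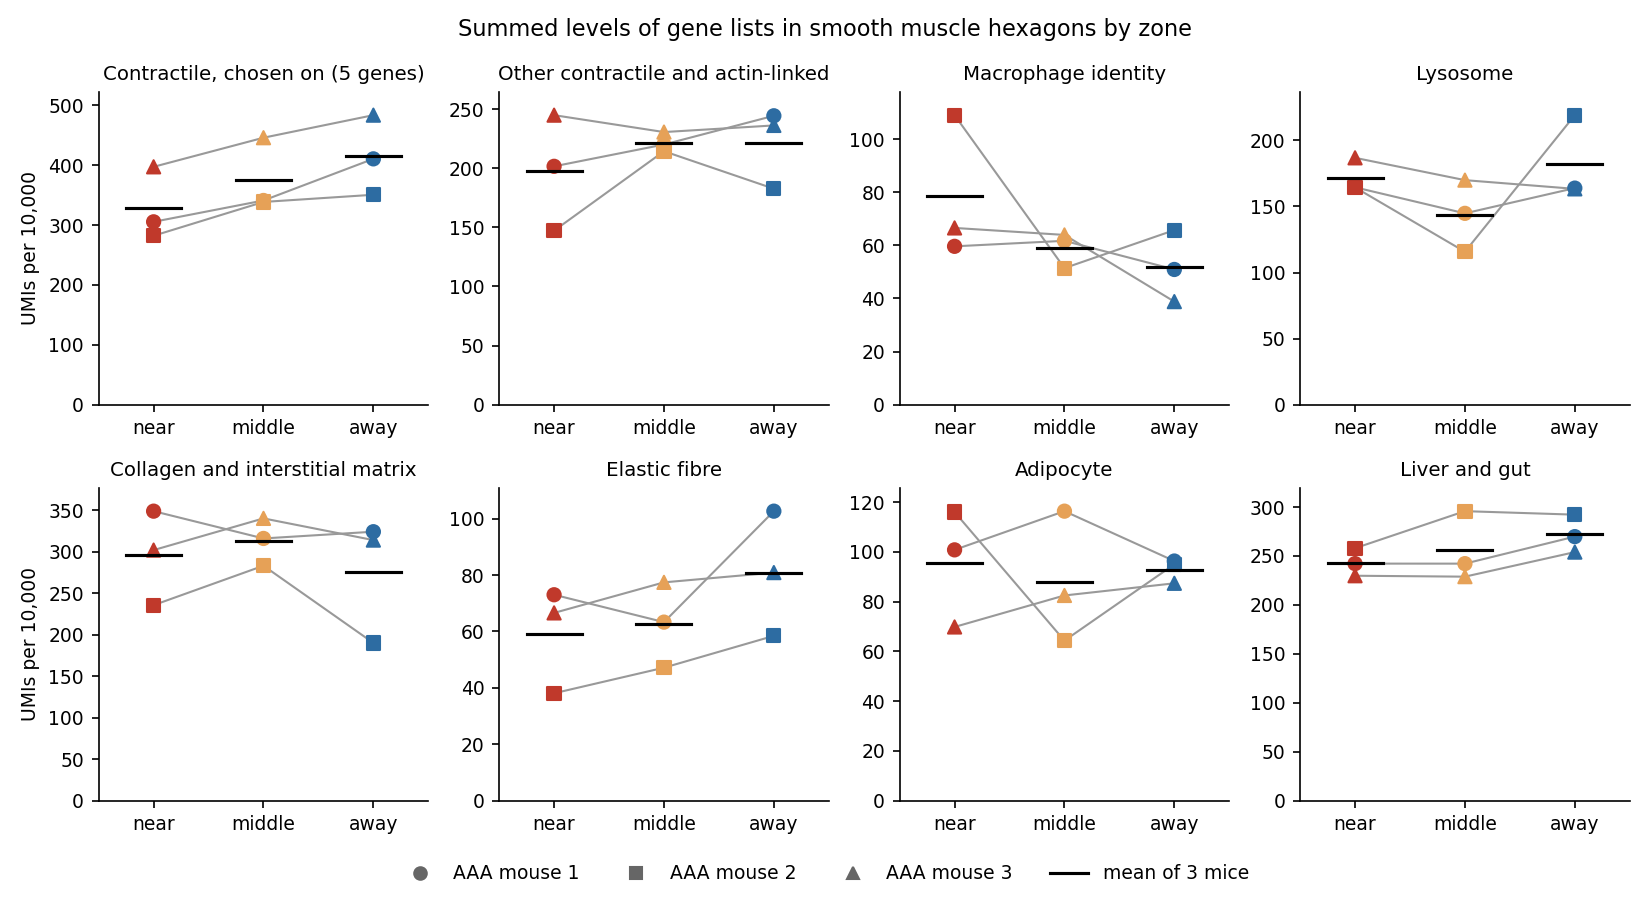
Summed share of 8 gene lists (UMIs per 10,000, y axes) in near, middle and away smooth muscle hexagons, each point 1 AAA mouse, lines joining the zones of a mouse and each bar the mean of 3 mice. The macrophage list was at 59.6, 109 and 66.6 near and at 50.9, 65.7 and 38.8 away, and the list of contractile genes outside the rule at 202, 147 and 245 near and 244, 183 and 236 away.

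Macrophage RNA was present in smooth muscle hexagons of both zones, and its share was higher near Gpnmb in each mouse. The 34 macrophage genes took 59.6, 109 and 66.6 of 10,000 UMIs near and 50.9, 65.7 and 38.8 away, a mean log2 ratio of 0.55 ± 0.29 (SD, n = 3), and the zones overlapped across mice. The middle zone was at 61.7, 51.4 and 63.9. The other kept hexagons were at 70.7, 72.4 and 80.5, above the away zone in each mouse. They were also above the near zone in mice 1 and 3, and below it in mouse 2. UMIs of 33 of the 34 genes were found in the members, and none of the 34 had enough to be tested singly. In members without a UMI of 8 macrophage genes, the ratio of the list was 0.61 ± 0.51 (SD, n = 3), and 0 of 40 genes tested passed in edgeR. All of these 8 genes but Ctss belong to the list, so there the ratio rests on its other genes and is not the same measure. Whether macrophage RNA belonged to the smooth muscle area or to the Gpnmb-positive area beside it cannot be told apart.

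Lyz2, the lysozyme of macrophages and other myeloid cells, had 21, 6 and 9 UMIs near and 10, 3 and 2 away. Its share was 10.8, 10.4 and 9.66 of 10,000 near and 7.96, 21.9 and 3.23 away, and mouse 2, with 3 UMIs away, went the other way. Cd68, a lysosomal glycoprotein of macrophages, had 4, 2 and 1 UMIs near and 0 in all 3 away zones. The pooled share near was 2.03 of 10,000 on 7 UMIs, and the 0 UMIs away allow up to 1.49 of 10,000 (a limit of 3 UMIs, for counting error only), so counts this low give no fold. Plin2, which coats lipid droplets, had 13, 6 and 3 UMIs near and 4, 1 and 1 away, and its share was higher near in each mouse. C1qc, a chain of the complement protein C1q that macrophages make, went the other way in mice 2 and 3, with 11, 0 and 3 UMIs near and 5, 1 and 4 away and shares of 5.66, 0 and 3.22 of 10,000 near and 3.98, 7.30 and 6.47 away.

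Lysosomal genes, which took a larger share in the Gpnmb-positive hexagons themselves, gave no call in the smooth muscle hexagons beside them. Of the 40 in the list, 3 had enough UMIs to be tested. Ctsb, the cysteine protease cathepsin B, had 25, 7 and 13 UMIs near and 13, 1 and 5 away, under the limit for the test. Its share was 12.9, 12.1 and 14 of 10,000 near (mean 13.0 ± 0.927) and 10.3, 7.30 and 8.09 away (mean 8.58 ± 1.58, SD, n = 3). The zones did not overlap, and the exact permutation p was 0.25, the smallest possible. With 2 or more contractile UMIs the zones overlapped. Gpnmb-positive hexagons were at 17.7, 38.6 and 21.4, above the near zone in each mouse. The middle zone was at 14.2, 12.9 and 10.1, on 18, 3 and 6 UMIs. It was above the near zone in mice 1 and 2 and below it in mouse 3, so Ctsb showed no steady order with distance. The other kept hexagons were at 10.62, 11.99 and 12.06, between the away and near values in each mouse.

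Ctsd, the aspartic protease cathepsin D, had 28, 6 and 19 UMIs near and 19, 3 and 7 away, with a log2 fold change of 0.15 (95% interval -0.70 to 1.01). As a share this was 14.4, 10.4 and 20.4 of 10,000 near and 15.1, 21.9 and 11.3 away, lower near in mice 1 and 2. Psap, the precursor of the saposins that help to degrade sphingolipids, had 57, 23 and 31 UMIs near and 31, 7 and 17 away, with a log2 fold change of 0.23 (95% interval -0.26 to 0.71). As a share Psap was at 29.3, 39.8 and 33.3 of 10,000 near and 24.7, 51.1 and 27.5 away, lower near in mouse 2. Both intervals include 0, and that of Psap lies within a 2-fold change. Over all 40 lysosomal genes the share was 165, 164 and 187 of 10,000 near and 164, 219 and 163 away, a mean log2 ratio of -0.08 ± 0.32 (SD, n = 3). Of lipid and iron genes, Apoe, which all these mice lack as a protein, was still counted, with 90, 28 and 33 UMIs near and 66, 4 and 31 away and a log2 fold change of -0.14 (95% interval -0.55 to 0.26).

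**Figure D5:**
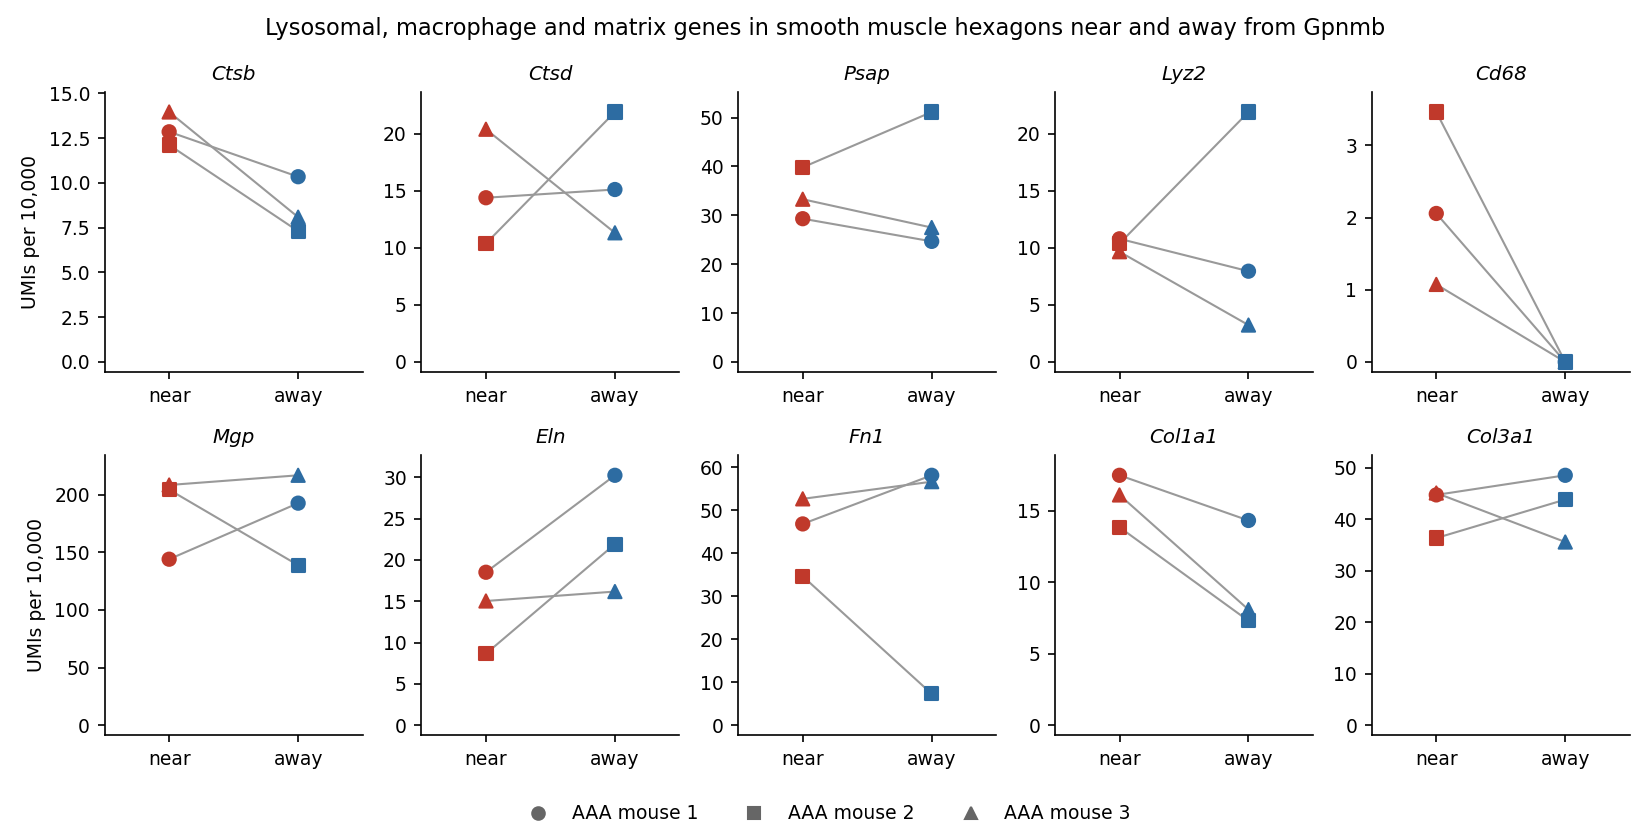
UMIs per 10,000 of Ctsb, Ctsd, Psap, Lyz2, Cd68, Mgp, Eln, Fn1, Col1a1 and Col3a1 in smooth muscle hexagons near and away from Gpnmb, with a line joining the zones of each AAA mouse. Ctsb was higher near in all 3 mice (12.9, 12.1 and 14 near and 10.3, 7.30 and 8.09 away), while the lines of Col3a1, Fn1 and Mgp went both ways.

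Matrix genes gave no call either, and their directions were mixed. Eln, which encodes elastin, the rubber-like protein of the medial lamellae, had 36, 5 and 14 UMIs near and 38, 3 and 10 away. Its share was 18.5, 8.66 and 15 of 10,000 near and 30.2, 21.9 and 16.2 away, lower near in each mouse, with a log2 fold change of -0.55 (95% interval -1.30 to 0.21). The 15 elastic fibre genes together took 73.0, 38.1 and 66.6 of 10,000 near and 103, 58.4 and 80.9 away, lower near in each mouse with overlap across mice. Besides Eln, only Mfge8, a secreted milk fat globule protein, was tested from this list, with a log2 fold change of 0.03 (95% interval -0.76 to 0.83).

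Col1a1, a chain of the fibrillar collagen of the adventitia and of scars, had 34, 8 and 15 UMIs near and 18, 1 and 5 away. Its share was 17.5, 13.8 and 16.1 of 10,000 near and 14.3, 7.30 and 8.09 away, higher near in each mouse, and its log2 fold change was 0.57 (95% interval -0.31 to 1.45). Col3a1, the collagen that is assembled with it, was at 0.05 (95% interval -0.36 to 0.46), and Fn1, which encodes fibronectin, at -0.11 (95% interval -0.52 to 0.30). Mgp, the matrix Gla protein that inhibits calcification, was the most abundant of these, with 280, 118 and 194 UMIs near and 242, 19 and 134 away, and a log2 fold change of -0.05 (95% interval -0.94 to 0.85). The whole list of 34 collagen and interstitial matrix genes took 349, 235 and 302 of 10,000 near and 324, 190 and 314 away.

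Genes through which shed GPNMB can act were at the floor of the measurement. Cd44 had 2, 0 and 0 UMIs near and 0 in all away zones, and the Gpnmb-positive hexagons themselves had 0, 0 and 3, so no fold is given. Itgb1, the common integrin beta chain, had 11, 2 and 3 UMIs near and 6, 0 and 6 away. The list of receptors and sheddases of GPNMB took 17.5, 15.6 and 19.3 of 10,000 near and 19.9, 14.6 and 19.4 away. A difference in these genes was not detectable at this depth.

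Of stress genes, Hspa8, a constitutive heat shock chaperone, was the 1 tested, with 27, 10 and 16 UMIs near and 17, 0 and 5 away and a log2 fold change of 0.59 (95% interval -0.27 to 1.45). Hsp90ab1, a chaperone of another family, had 3, 4 and 6 UMIs near and 13, 1 and 7 away, a lower share near in each mouse. The list as a whole took 43.7, 41.5 and 51.5 of 10,000 near and 40.6, 29.2 and 40.4 away, and the zones did not overlap. The list held 85, 24 and 48 UMIs near and 51, 4 and 25 away, so the away value of mouse 2 rested on 4 UMIs. In mouse 2, Hspa8 gave 10 of the 24 UMIs near and 0 of the 4 away. The separation of the zones thus rested in part on Hspa8 alone. The middle zone was at 35.6, 34.3 and 38.7, below the away zone in mice 1 and 3. The other kept hexagons were at 39.7, 46.0 and 44.2. Connective tissue growth factor, Ccn2, had 35, 6 and 10 UMIs near and 22, 1 and 2 away. Cxcl12, a chemokine of stromal cells, had 10, 5 and 5 UMIs near and 5, 1 and 0 away. Both had a higher share near in each mouse on counts too low to test. The TGF-beta and CCN list, which holds Ccn2, took 93.1, 88.3 and 67.6 of 10,000 near and 85.1, 43.8 and 71.2 away. The list of cytokines and metalloproteinases, which holds Cxcl12, took 22.6, 36.4 and 26.8 near and 31.0, 21.9 and 11.3 away. Near was lower in mouse 3 for the former and in mouse 1 for the latter. Igfbp4 and Igfbp7 of the former list and Timp1 and Timp2 of the latter each had a lower share near in at least 1 mouse.

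Other cell types were represented in both zones. Dcn, a proteoglycan of adventitial fibroblasts, had 34, 2 and 9 UMIs near and 13, 0 and 1 away, while the list of adventitial fibroblast genes took 117, 62.3 and 63.4 of 10,000 near and 70.0, 80.4 and 51.8 away. Adipocyte genes took 101, 116 and 69.8 near and 96.3, 95 and 87.3 away. Endothelial genes were few, at 6.17, 8.66 and 7.52 near and 9.55, 7.30 and 9.70 away. Their part in the results was not tested.

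Genes of liver and gut, such as Alb, which encodes serum albumin, and Mup20, were also found in aortic sections, and their share was lower near in each mouse, at 242, 258 and 230 of 10,000 near and 270, 292 and 254 away. Alb itself had 150, 52 and 75 UMIs near and 97, 11 and 58 away, with a log2 fold change of -0.01 (95% interval -0.52 to 0.50). The part of these genes in the other results was not tested. In such summed counts, fewer cells of a type and less RNA per cell cannot be told apart.

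Near hexagons were then compared with smooth muscle hexagons that were close to Ctsb or Lyz2 without Gpnmb. This asked whether closeness to Gpnmb differed from closeness to these genes, which macrophages express but which do not mark them alone. The hexagons near Ctsb or Lyz2 had a Ctsb- or Lyz2-positive, Gpnmb-negative hexagon within 45 µm and no Gpnmb-positive hexagon within 90 µm. They numbered 84, 8 and 38 in mice 1, 2 and 3 (130 in all, against 296 near Gpnmb), and they are 130 of the 213 away hexagons. They held 9074, 828 and 3176 UMIs, and the sum of 828 UMIs in mouse 2 limits this comparison. The macrophage list took 46.3, 84.5 and 44.1 of 10,000 UMIs in them and 50.9, 65.7 and 38.8 in the whole away zone. It was thus lower in them in mouse 1. Whether the Ctsb- or Lyz2-positive hexagons were macrophage areas was not checked. Both comparisons share the near hexagons and part of the away hexagons, and their results are not independent.

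Of 61 genes tested, 0 passed the adjusted threshold in edgeR (0%, lowest adjusted p = 0.972), DESeq2 called 0, and 3 had an unadjusted p under 0.05 (4.92% of those tested, 3.28% higher and 1.64% lower near Gpnmb). The 3 were Rps13 with a log2 fold change of 1.30, Hp with 0.87 and Rps3 with -0.88, near Gpnmb over near Ctsb or Lyz2. The share of Rps13 was higher near Gpnmb in each mouse. Hp went the other way in mouse 2 (19.0 against 24.2 of 10,000) and Rps3 in mouse 3 (4.30 against 3.15). The values near Ctsb or Lyz2 there rested on 2 UMIs of Hp and 1 of Rps3. Hp encodes haptoglobin, a hemoglobin-binding plasma protein that fat and liver make. The median log2 fold change over the 61 genes was 0.09, and 34 were above 0 and 27 below. Of contractile and actin-linked genes outside the rule, 5 were tested, 2 above and 3 below 0, with a median of -0.04, and the same 5 genes had a median of -0.10 in the first comparison. The median of the 3 lysosomal genes tested was -0.05, and that of the 6 collagen and matrix genes 0.05.

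One gene was called when the least number of contractile UMIs was lowered, which brought more hexagons into the zones. With 2 or more contractile UMIs there were 364, 139 and 229 near hexagons and 281, 51 and 189 away hexagons in mice 1, 2 and 3, and 250 genes could be tested. The single call was Cfd (chromosome 10, 79890853 to 79892655, plus strand), the gene of adipsin, a complement protease that fat cells secrete. It had 106, 50 and 41 UMIs near and 121, 16 and 27 away. Its share was 24.3, 31.1 and 19.5 of 10,000 near and 45.2, 41.7 and 18.0 away, lower near in mice 1 and 2 and higher in mouse 3. The log2 fold change was -0.60 ± 0.16 (SE, 95% interval -0.92 to -0.29, adjusted p = 0.0426 in edgeR). In the hexagons with 3 or more contractile UMIs it was 0.09 (95% interval -0.49 to 0.67), with 51, 25 and 12 UMIs near and 35, 2 and 11 away. In the wider set 23 genes had an unadjusted p under 0.05 of 250, and Cfd alone passed the adjusted threshold. Among these 23 were Dstn, at -0.78 (95% interval -1.23 to -0.33, adjusted p = 0.0932 in edgeR), and Tpm2, at -0.77 (95% interval -1.34 to -0.20). The share was higher near in mouse 2 for Dstn and in mouse 3 for Tpm2. Ptgis was at -0.61 (95% interval -1.25 to 0.03). The whole list of contractile genes outside the rule had a mean log2 ratio of -0.20 ± 0.17 (SD, n = 3). Of 10 lysosomal genes tested there, 7 were above 0 and 3 below, with a median of 0.15. Psap, at 0.34, and Laptm4a, which encodes a lysosomal membrane protein, at -0.86, had an unadjusted p under 0.05. These were 2 of the 10 lysosomal genes, in opposite directions, beside 23 of all 250 genes. How the 250 genes split above and below 0 is not given here, so the split of the 10 is not read as a trait of the list. Ctsb was at 0.13, and its shares of 11.4, 11.2 and 12.9 of 10,000 near and 10.5, 2.61 and 14 away overlapped, with mouse 3 lower near. Of macrophage genes 2 were tested, Lyz2 at 0.32 and C1qb, another C1q chain, at -0.72.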

How the data were processed

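Seq-Scope RNA of 20 aortic sections was deposited by the authors as 1 matrix of UMI counts (9837644 barcodes, 32285 genes), aligned with STAR and STARsolo 2.7.5c to mm10 per the submitters' processing notes, which also name Seurat 4. The deposited counts are not normalized. The exonic counts were used, as the third count field of the matrix, and counts over whole genes were tried as an alternative. No role of the fields is stated in the file, so it was inferred from their values. The 8551 genes whose names start with mt or Gm were removed, and barcodes were binned into hexagons of 12 µm side. The number of position units per µm was a preset value that rests on an earlier fit of the positions to the section outlines of the study's supplement, so distances in µm carry the error of that fit. Kept AAA hexagons held 524518, 180261 and 212415 UMIs in mice 1, 2 and 3. No doublet caller was run, as a hexagon is not a cell.

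UMIs were summed per mouse and zone. They were tested in R 4.3.3 by the quasi-likelihood test of edgeR 4.0.16, after filterByExpr and TMM scaling, and p-values were adjusted by Benjamini-Hochberg over all genes tested (threshold 0.05). DESeq2 1.42.0 was an alternative. The near and away zones of a pair come from the same mouse, which is the pairing. The SE and interval of a fold change were derived from its p and degrees of freedom. Rule genes were left out of the tests. Shares per 10,000 UMIs use all kept genes as the total. List ratios are log2 of summed shares with 0.5 UMI added. Single values were compared by exact permutation over 3 mice, two-sided, with Python 3.11.15 and SciPy 1.17.1. The scripts were tested on simulated data. Gene coordinates are from GENCODE M21 on GRCm38, which is the assembly named mm10.

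Genes named in the text were those past the threshold in all 3 mice (none), the 5 rule genes, 11 genes taken from the study (Ctsb, Ctsd, Psap, Lyz2, Cd68, Mgp, Eln, Fn1, Col1a1, Col3a1 and Cd44), and up to 3 genes of highest count in each of 21 lists. Exceptions are named as such, and single genes tested in a list are given beside its count. The members and lists were chosen with earlier results of these data known. Control sections entered no test.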

Additional observations from a re-analysis of the deposited data

How the results depend on the processing

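The first comparison gave 0 calls under 20 of 21 alternatives, and the second under 20 of 20. With 2 or more contractile UMIs, the first gave 1 call, Cfd, at a log2 fold change of -0.60, against 0.09 with 3 or more; more genes were tested there (250 against 65). Without the mouse as a replicate block, 0 genes were called in both comparisons, with 3 and 1 at an unadjusted p under 0.05, so the pairing by mouse changed no call. Without a filter on low counts, 0 were called, 47 and 58 had an unadjusted p under 0.05, and the median log2 fold change moved to 0.62 over 10096 genes and to 1.42 over 9561. Leaving out 1 mouse in turn gave 0 calls. The mean log2 ratio of a list then ran from -0.30 to -0.11 for contractile genes outside the rule, 0.44 to 0.71 for macrophage genes, -0.21 to 0.10 for lysosomal genes (-0.08 with all mice) and 0.02 to 0.20 for collagen genes. The contractile list moved to 0.0585 with 5 or more contractile UMIs, where only 2 mice had both zones, and to 0.02 with UMIs over whole genes. The lysosomal list was also above 0 with 2 or more contractile UMIs (0.13), 5 or more (0.17), 75 or more genes per hexagon (0.05) and a shifted grid (0.01). The macrophage list, at 0.55, moved to 0.22 with 75 or more genes per hexagon, to -0.28 with 5 or more contractile UMIs and to 0.86 with a wider away limit. The collagen list, at 0.11, moved to 0.41 with a wider away limit and to 0.32 in hexagons without macrophage UMIs. The cause of these moves was not tested. Of 1047 values of single genes under alternatives, 179 had the other sign and 1033 lay inside the gene's 95% interval. The difference in UMIs per hexagon was 9.83 to 31.8 over 13 alternatives, higher near in each. Pairing by section (8 sections, 9 genes tested), Gpnmb-positive hexagons from 10 genes, a shifted grid and the section beside a control section left out were chosen after seeing the data and gave 0 calls each. The away sum of 1369 UMIs in mouse 2 limits the precision.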
